A study of Homo sapiens with 23 samples.

Results

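The genes described here include *THUMPD3*, *THUMPD2* and *THUMPD1*, the 3 human genes named after the THUMP domain. The others are *TRMT112* and the further methyltransferases known to need TRMT112, namely *TRMT11*, *METTL5*, *BUD23*, *N6AMT1* and *ALKBH8*. The 9 genes were chosen by name, with earlier results of these data known. They make up 9 of the 61806 genes of the first count table and 9 of the 42901 genes of the deep count table. All 9 passed the filter on low counts in every comparison. Their RNA was read from 23 RNA-sequencing libraries of A549 cells, a lung carcinoma line.

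The first 17 libraries hold 3 knockdowns of *THUMPD3*, each with its own control. In siD3 #3 (n = 3) the cells received an siRNA against *THUMPD3*, and siControl (n = 2) is its control. In shD3 #1 and shD3 #4 (n = 3 each) lentivirally delivered pLKO-Tet-On short hairpin RNAs, which are induced by doxycycline, targeted *THUMPD3*, and sh1Control and sh4Control (n = 3 each) are their controls. The other 6 libraries, sequenced more deeply, hold shD3 #1 and sh1Control again (n = 3 each) and are called deep shD3 #1 and deep sh1Control. All groups are 1 cell line, the labels give all controls the genotype WT, and the shRNA cells are transduced, puromycin-selected cells. Cloning of these cells is not described. Whether the shRNA controls carried the vector or received doxycycline is not given in the labels. The paper calls the controls untreated and the knockdowns treated, without saying whether this means doxycycline. If only the knockdown cells received it, doxycycline and depletion cannot be told apart in the shRNA comparisons. The siRNA cells were harvested earlier than the shRNA cells, so the agent and the time of harvest cannot be told apart in siD3 #3.

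Total counts were 9854294 to 22101059 per library in the first set and 27285889 to 59974740 in the deep set, and mitochondrially encoded genes took 24.8% to 37.4% and 11.8% to 15.4% of them. This share moved with every knockdown and without overlap. It was higher in siD3 #3 (29.8% to 36.5%, siControl 24.8% to 27.3%) and shD3 #4 (31.2% to 37.4%, sh4Control 27.8% to 30.9%), and lower in shD3 #1 (29.0% to 29.6%, sh1Control 31.4% to 33.6%) and deep shD3 #1 (11.8% to 12.5%, deep sh1Control 14.7% to 15.4%). No call of the 9 genes in these 4 comparisons changed when the mitochondrially encoded genes were left out. Library siD3 #3 replicate 3 stood apart from its group. Its chi-square per degree of freedom over genes was 30.4 and 34.6 against the other siD3 #3 libraries, where those differed from each other by 3.76 and all other replicate pairs of the series by 1.82 to 16.4. Calls and list counts of siD3 #3 that change without it are given both ways. Each of the 8 epithelial and A549 markers reached 1 cpm (counts scaled to library size by TMM) in at least 1 library of each count table. Their sum was 8145 to 16073.9 cpm per library, the lowest in siD3 #3. The fibroblast, endothelial and leukocyte markers summed to at most 29.9, 1.58 and 7.21 cpm, and *DCN*, *PECAM1*, *VWF*, *PTPRC* and *CD3E* were under 1 in every library. The fibroblast sum was 8.06 to 8.75 cpm in deep sh1Control and 27.4 to 29.9 in deep shD3 #1, and its part in the results below was not tested.

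TRMT112 is a small protein without catalytic activity of its own that binds a set of methyltransferases, keeps them stable and allows them to bind S-adenosylmethionine, the methyl donor. Each partner methylates its own substrate: THUMPD3 and TRMT11 place methylguanosine on tRNAs, THUMPD2 places it on U6 snRNA, ALKBH8 completes a modified uridine at the tRNA wobble position, METTL5 and BUD23 methylate the RNA of the small ribosomal subunit, and N6AMT1 methylates the translation termination factor eRF1. The THUMP domain is an RNA-binding fold. THUMPD1 has it but no methyltransferase domain, and serves as the tRNA adaptor of the acetyltransferase NAT10. Since the partners draw on 1 activator, the comparisons below ask whether their mRNAs moved when *THUMPD3* mRNA was lowered.

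The promoters shown are those of the target and of the activator. Both genes start close to another gene that was also measured. The same holds for *BUD23*, whose promoter is not shown. The RefSeq promoter table (GRCh38.p14) had entries for 7 of the 9 genes. The windows hold 250 bases before and 50 bases from the transcription start, written 5′ to 3′ on the gene's own strand. Capitals mark CCGGAAG or its reverse complement CTTCCGG, the core bound by ETS factors, and GCGCATGC or its reverse complement GCATGCGC, the core bound by NRF1. The motifs do not overlap each other in these windows.
*THUMPD3*, chr3:9362804-9363103, plus strand: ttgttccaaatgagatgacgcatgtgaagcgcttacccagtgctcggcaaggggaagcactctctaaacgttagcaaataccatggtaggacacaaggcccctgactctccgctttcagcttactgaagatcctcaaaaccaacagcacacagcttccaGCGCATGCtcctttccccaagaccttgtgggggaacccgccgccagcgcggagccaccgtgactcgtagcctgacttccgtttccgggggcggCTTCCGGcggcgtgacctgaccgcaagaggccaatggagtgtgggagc
*TRMT112*, chr11:64317510-64317809, minus strand: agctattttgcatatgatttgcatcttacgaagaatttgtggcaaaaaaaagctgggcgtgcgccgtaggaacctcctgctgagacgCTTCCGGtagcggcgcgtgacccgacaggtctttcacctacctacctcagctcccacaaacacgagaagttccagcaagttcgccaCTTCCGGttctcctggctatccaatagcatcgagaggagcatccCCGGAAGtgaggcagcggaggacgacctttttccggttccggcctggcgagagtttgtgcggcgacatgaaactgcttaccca
The ETS core was found once in the *THUMPD3* window and 3 times in this *TRMT112* window, and the NRF1 core once, in *THUMPD3*. A further *TRMT112* window, chr11:64317941-64318240, is not shown and held the ETS core once. The ETS core was also present in the windows of *TRMT11* and *METTL5*, so that 4 of the 7 genes with an entry held it, and it was absent from those of *BUD23*, *THUMPD1* and *ALKBH8*. Of all 35116 promoter windows of this length, 10.3% held the ETS core and 3.05% the NRF1 core. The motifs were picked after the sequences were read, and a match is a description of letters only.

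The targeted gene, *THUMPD3* (ENSG00000134077), lies on chr3:9362971-9386791 of GRCh38. Its normalised read count, in TMM-scaled cpm, was 60.7, 58.3 and 61.4 in sh1Control and 29.9, 29.6 and 31.8 in shD3 #1. It was 66.7, 65.4 and 59.1 in sh4Control and 20.2, 19.98 and 19.1 in shD3 #4. In siControl it was 67.5 and 70.3, and in siD3 #3 11.8, 12.8 and 10.7. Every knockdown library lay below every control library of its pair. In the deep set, sh1Control held 54.0, 53.0 and 55.9 cpm and shD3 #1 24.9, 27.5 and 28.3 cpm, again without overlap.

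The mRNA that remained was 51.1% of control in shD3 #1, 31.4% in shD3 #4 and 17.1% in siD3 #3, and 49.6% in deep shD3 #1. The log2 fold changes were -0.97 ± 0.07 (SE, adjusted p = 6.42e-09), -1.67 ± 0.07 (adjusted p = 2.42e-15), -2.54 ± 0.10 (adjusted p = 6.88e-06) and -1.01 ± 0.06 (adjusted p = 1.55e-09), from edgeR's quasi-likelihood test. The order of the 6 first groups from high to low was siControl, sh4Control, sh1Control, shD3 #1, shD3 #4 and siD3 #3, and sh4Control and sh1Control were the only neighbours in it whose libraries overlapped. The depth of depletion itself differed between the 3 knockdowns (adjusted p = 1.47e-09). It was greater in shD3 #4 than in shD3 #1 by 0.70 on the log2 scale (95% interval of shD3 #4 minus shD3 #1 -0.91 to -0.49, adjusted p = 1.17e-05), and the change in siD3 #3 minus that in shD3 #4 was -0.86 (-1.09 to -0.63, adjusted p = 3.65e-06). The control groups did not differ in *THUMPD3* past the threshold (adjusted p = 0.14). An exact two-sided permutation test on the mean log2 cpm gave p = 0.1 in each comparison of 3 against 3 libraries and p = 0.2 in siD3 #3, the smallest values these designs allow.

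**Figure D1:**
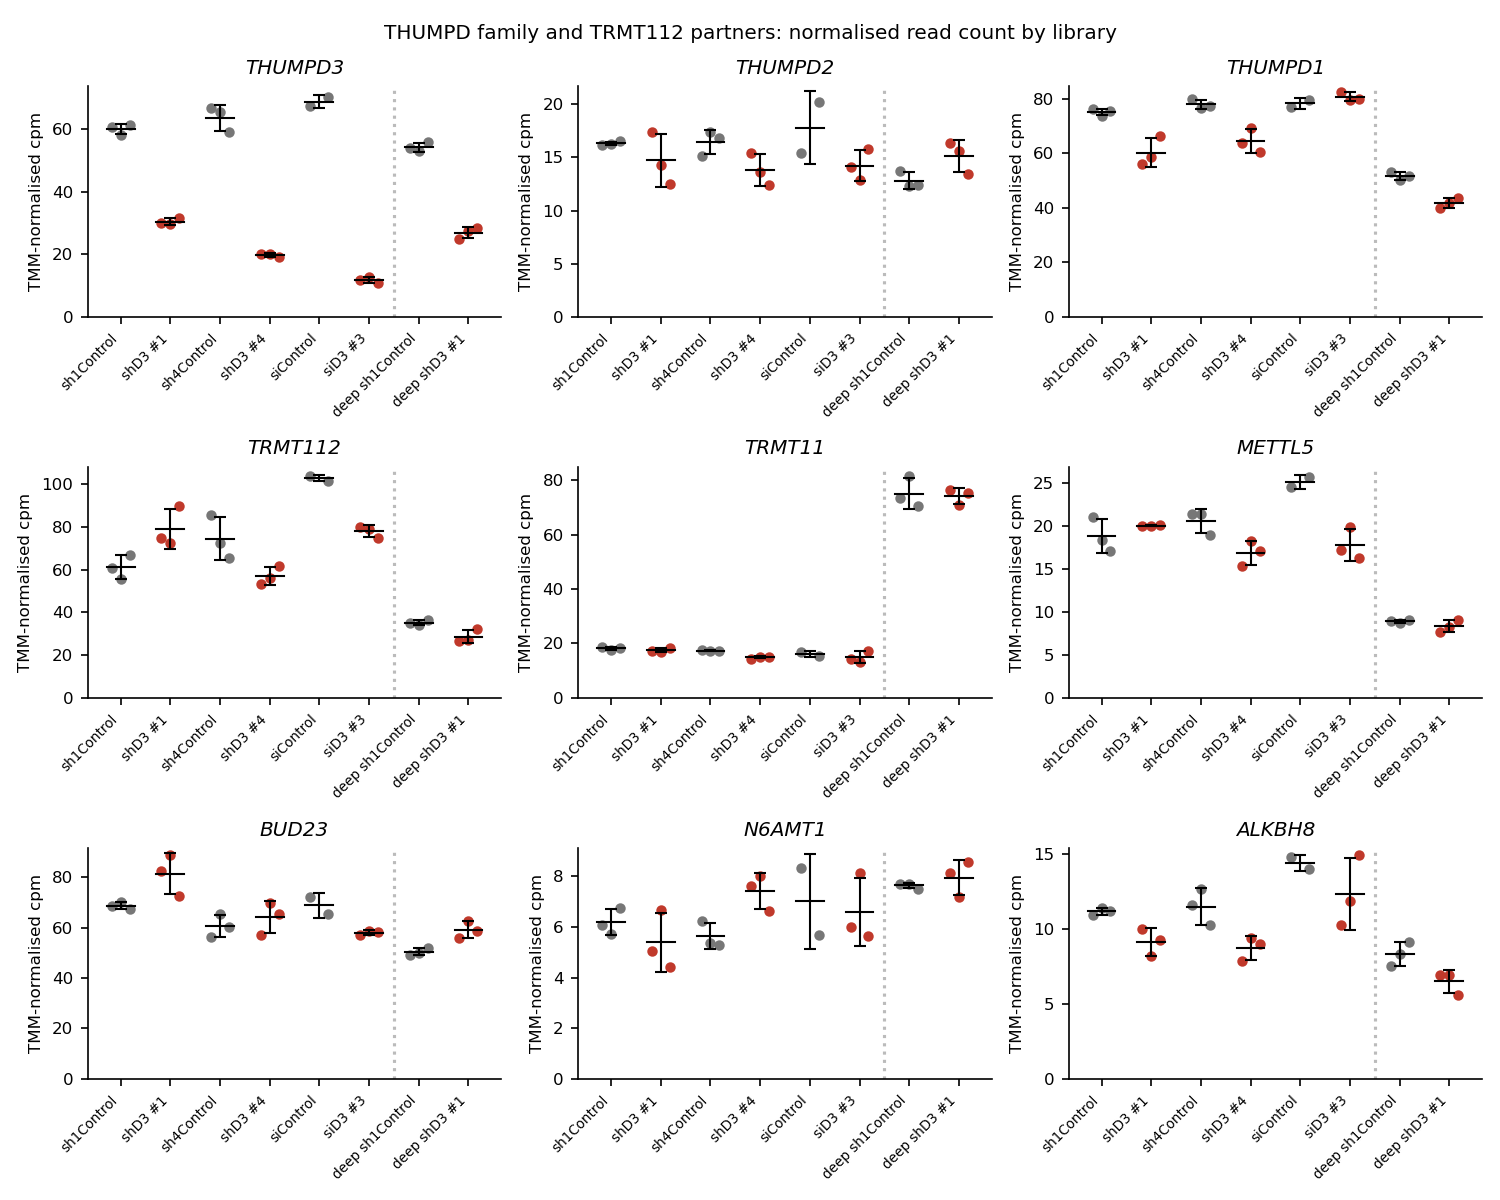
TMM-normalised cpm of the 9 genes (y axis, from 0) in each library (points, controls grey and knockdowns red), with the group mean and SD as black lines. The dotted line separates the first libraries from the deep ones, which come from another count table. *THUMPD3* falls from 58.3 to 70.3 cpm in the first controls to 10.7 to 31.8 cpm in the first knockdowns, while *TRMT112* moves up in shD3 #1 and down in the other 3 knockdown groups.

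In numbers of genes, 5 of the 9 passed an adjusted p of 0.05 in shD3 #1, where 56.5% of all 16456 genes tested passed it. In shD3 #4, 8 of 9 passed against 40.8% of all genes. In siD3 #3, 3 of 9 passed against 33%, and in deep shD3 #1, 6 of 9 passed against 62.6%. The shD3 #4 count was 5 without sh4Control replicate 2, where 33.2% of all genes passed. The siD3 #3 count was 1 without siControl replicate 1 (17.2% of all genes) and 5 without siD3 #3 replicate 3 (42.1%). In all 4 comparisons *THUMPD3* was the 1 gene of the 9 that also passed a change of 1.5-fold, a size passed by 29.1%, 12.5%, 22% and 29.1% of all genes. Apart from *THUMPD3*, the largest absolute log2 fold changes were 0.38, 0.41, 0.49 and 0.36. The median absolute log2 fold change of the other 8 genes was 0.21, 0.26, 0.23 and 0.23 in the same order, beside 0.37, 0.24, 0.36 and 0.37 over all genes tested. Every knockdown library lay on 1 side of every control library for 5, 7, 4 and 5 of the 9 genes, *THUMPD3* included, against 62.1%, 49.6%, 60% and 67.1% of all genes. These are bulk measurements, in which fewer cells of a kind and less RNA per cell cannot be told apart.

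**Figure D2:**
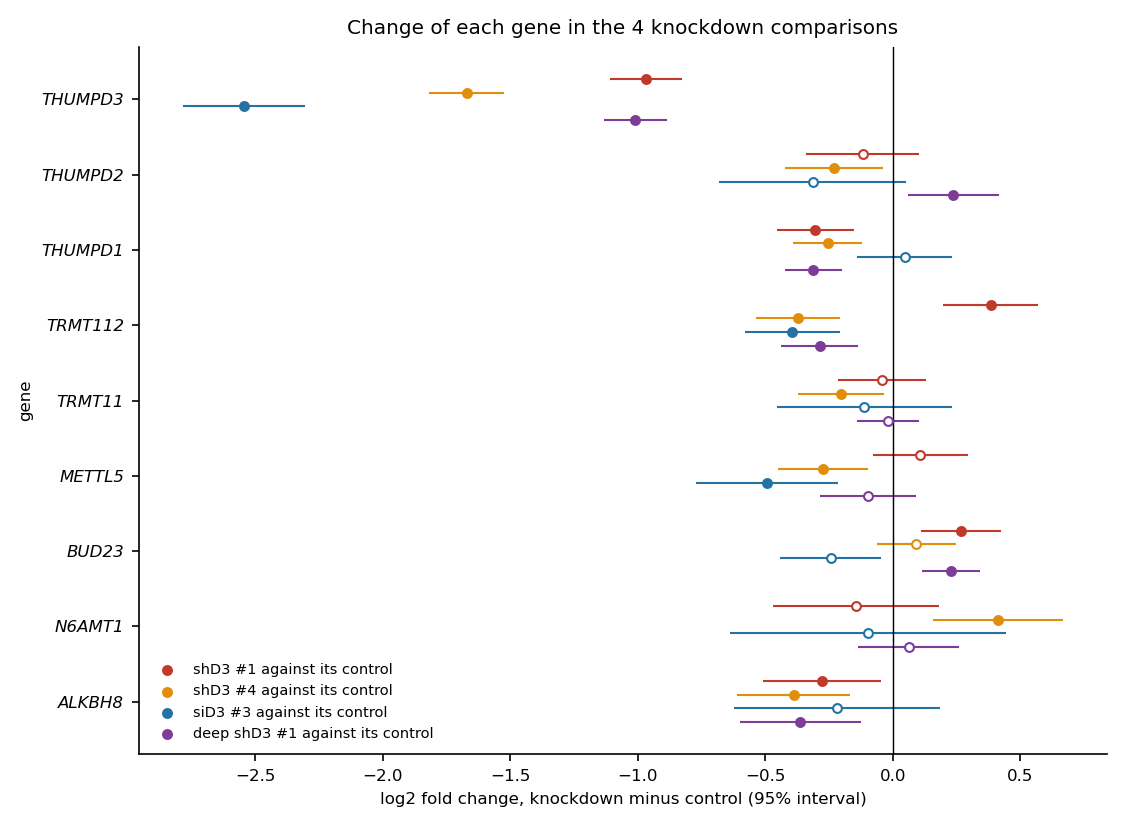
Log2 fold change of each gene, knockdown minus its own control (x axis), with its 95% interval, in the 4 comparisons (colours). Filled points passed an adjusted p of 0.05 in edgeR's quasi-likelihood test and open points did not. *THUMPD3* lies at -2.54 to -0.97, and all other genes lie between -0.49 and 0.41.

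*TRMT112* (ENSG00000173113, chr11:64316460-64317559), the activator, changed in all 4 comparisons, and not in 1 direction. In sh1Control it held 61.0, 55.6 and 66.8 cpm and in shD3 #1 74.7, 72.7 and 90.0 cpm. In sh4Control it held 85.4, 72.6 and 65.5 cpm and in shD3 #4 53.2, 56.1 and 61.6 cpm. In siControl it held 103.7 and 101.8 cpm and in siD3 #3 80.2, 78.9 and 75.0 cpm. The libraries of shD3 #1 all lay above their controls, and those of shD3 #4 and siD3 #3 all lay below theirs. *TRMT112* thus rose in shD3 #1 (log2 fold change 0.38 ± 0.09, adjusted p = 0.00142) and fell in shD3 #4 (-0.37 ± 0.08, adjusted p = 0.000521) and in siD3 #3 (-0.39 ± 0.08, adjusted p = 0.0082). Its change differed between the 3 knockdowns (adjusted p = 0.000104), as did those of 5 of the 9 genes and of 52.4% of all genes: shD3 #4 minus shD3 #1 was -0.75 (-1.04 to -0.47) and siD3 #3 minus shD3 #1 was -0.76 (-1.06 to -0.46), whereas siD3 #3 minus shD3 #4 was -0.01 (-0.31 to 0.29, adjusted p = 0.975). Without siControl replicate 1 the siD3 #3 change was -0.39 with an adjusted p of 0.0534.

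The deep libraries of the same hairpin gave the opposite sign for *TRMT112*. Deep sh1Control held 34.9, 34.1 and 36.4 cpm and deep shD3 #1 26.5, 27.3 and 32.4 cpm, so every knockdown library lay below every control. *TRMT112* fell there (-0.29 ± 0.07, adjusted p = 0.00259). The rise in the first shD3 #1 libraries and the fall in the deep ones each held when any 1 library was left out, with log2 fold changes of 0.28 to 0.46 and of -0.39 to -0.23. The 2 sets differ in depth, in the list of genes counted and in mitochondrial share, and the part of these in the change of sign was not tested. Averaged over the 3 first knockdowns, where 51.9% of all genes and 6 of the 9 passed the test, the change was -0.14 ± 0.06 (adjusted p = 0.0483), a call that 13 of the 17 fits with 1 library left out did not make, and that average joins opposite signs.

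*TRMT112* also differed between the 3 first control groups (adjusted p = 4.38e-05). The means were 61.1 ± 5.59 cpm in sh1Control, 74.5 ± 10.1 in sh4Control and 102.8 ± 1.40 (SD, n = 2) in siControl. From high to low the first groups ran siControl, shD3 #1, siD3 #3, sh4Control, sh1Control and shD3 #4, and in that order only siControl and shD3 #1 did not overlap. Of all genes, 31.5% differed between the control groups, and of the 9 genes here *METTL5* (adjusted p = 0.0117) and *ALKBH8* (adjusted p = 0.0328) did so as well.

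By the root-mean-square difference of log2 fold changes over the 4 comparisons, among 13535 genes tested in all of them, the genes nearest to *TRMT112* were *EEF1B2*, a subunit of a translation elongation factor (0.06), and *RPS3*, a protein of the small ribosomal subunit (0.07). *EEF1B2* had log2 fold changes of 0.47, -0.33, -0.36 and -0.33 in shD3 #1, shD3 #4, siD3 #3 and deep shD3 #1. *RPS3* had 0.42, -0.46, -0.30 and -0.26. Both share the change of sign of *TRMT112* between the first and the deep shD3 #1 libraries. Nearness was measured on these same values, so that was set by how the genes were picked. The genes nearest to *THUMPD3* were farther from it, namely *H4C11*, a histone gene (0.41), *PTTG1*, securin (0.43), and *TERT*, the catalytic subunit of telomerase (0.44). The comparisons share the same cell line, and nearness is a description.

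Among the tRNA-directed members, *TRMT11* (ENSG00000066651, chr6:125986479-126203817), the other tRNA guanosine methyltransferase of the group, moved least. It held 18.7, 17.6 and 18.4 cpm in sh1Control and 17.4, 16.8 and 18.5 in shD3 #1 (log2 fold change -0.04, 95% interval -0.22 to 0.13, adjusted p = 0.675). In sh4Control it held 17.5, 17.3 and 17.1 cpm and in shD3 #4 14.4, 15.1 and 15.2 cpm, which do not overlap. That difference of -0.20 ± 0.08 lay at the threshold (adjusted p = 0.0499), with DESeq2 at 0.136 and with the filter of 10 counts at 0.057. It was also lost without sh4Control replicate 1 (0.101) or 2 (0.113) and without shD3 #4 replicate 1 (0.157), 2 (0.0775) or 3 (0.0764). In siD3 #3 the change was -0.11 (-0.46 to 0.23), and without siD3 #3 replicate 3 it was -0.24 (adjusted p = 0.138). The interval in deep shD3 #1 was -0.14 to 0.10. The level of *TRMT11* in deep sh1Control was 75.1 cpm, 4.12 times that in the first sh1Control. For the other 8 genes this ratio was 0.47 (*METTL5*) to 1.24 (*N6AMT1*). The tables were counted on different gene lists and normalised apart, so these ratios are given as a description and no difference in level between the tables was tested.

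*ALKBH8* (ENSG00000137760, chr11:107502727-107565742), which methylates the modified wobble uridine, was lower in all 4 comparisons and passed the test in 3. The first and the deep shD3 #1 comparisons use the same hairpin. In sh1Control it held 10.9, 11.4 and 11.2 cpm and in shD3 #1 10.0, 8.2 and 9.2 cpm. In sh4Control it held 11.6, 12.7 and 10.2 cpm and in shD3 #4 7.8, 9.4 and 9.0 cpm. In deep sh1Control it held 7.5, 8.3 and 9.1 cpm and in deep shD3 #1 6.9, 6.9 and 5.6 cpm. The groups of these 3 pairs did not overlap. It fell by 0.28 on the log2 scale in shD3 #1 (SE 0.11, adjusted p = 0.0391), by 0.39 in shD3 #4 (SE 0.11, adjusted p = 0.00499) and by 0.36 in deep shD3 #1 (SE 0.11, adjusted p = 0.0104). In siD3 #3 it held 10.2, 11.8 and 14.9 cpm against 14.8 and 14 cpm in siControl (-0.22, -0.62 to 0.18, adjusted p = 0.368). The high value is siD3 #3 replicate 3, and without that library the change was -0.39 (adjusted p = 0.0365).

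The changes of *ALKBH8* did not differ between the 3 first knockdowns past the threshold (adjusted p = 0.701), and their average was -0.31 ± 0.08 (adjusted p = 0.00208). The call in shD3 #1 rested on few counts, 94 to 226 per library. It was not made by DESeq2 (adjusted p = 0.121), nor without sh1Control replicate 1 (0.0802), 2 (0.0933) or 3 (0.0988) or shD3 #1 replicate 2 (0.223). The deep call was not made without deep sh1Control replicate 3 (0.0546) or deep shD3 #1 replicate 3 (0.0513). The genes nearest to *ALKBH8* over the 4 comparisons were *NOM1* (0.04) and *ANKS6* (0.05).

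*THUMPD1* (ENSG00000066654, chr16:20702816-20742084), the adaptor of NAT10, was lower in every shRNA comparison and not in the siRNA one. It held 76.2, 73.8 and 75.3 cpm in sh1Control and 55.9, 58.6 and 66.1 cpm in shD3 #1. It held 79.9, 76.5 and 77.3 cpm in sh4Control and 63.8, 69.4 and 60.6 cpm in shD3 #4. In deep sh1Control it held 53.2, 50.2 and 51.8 cpm and in deep shD3 #1 39.9, 41.6 and 43.5 cpm. No knockdown library of these pairs reached a control. It fell by 0.30 (SE 0.07, adjusted p = 0.00171), 0.26 (SE 0.07, adjusted p = 0.00275) and 0.31 (SE 0.05, adjusted p = 0.000111) on the log2 scale, calls that no left-out library removed.

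In siD3 #3 *THUMPD1* held 82.5, 79.5 and 79.9 cpm against 76.8 and 79.7 cpm in siControl, a difference of 0.05 with an interval of -0.14 to 0.23 (adjusted p = 0.691). The changes differed between the knockdowns (adjusted p = 0.0112): siD3 #3 minus shD3 #1 was 0.37 (0.15 to 0.58, adjusted p = 0.0082) and siD3 #3 minus shD3 #4 was 0.31 (0.10 to 0.53, adjusted p = 0.0268), while shD3 #4 minus shD3 #1 was 0.05 (-0.15 to 0.25, adjusted p = 0.715). In siD3 #3, which also differed in agent, time of harvest and number of control libraries, *THUMPD3* was lowered the most and *THUMPD1* did not pass the test. The part of those differences was not tested for *THUMPD1*. Its partner *NAT10*, the acetyltransferase, fell in all 4 comparisons, with log2 fold changes of -0.50 ± 0.07 in shD3 #1 (adjusted p = 8.76e-06), -0.23 ± 0.06 in shD3 #4 (adjusted p = 0.00448), -0.56 ± 0.09 in siD3 #3 (adjusted p = 0.00286) and -0.43 ± 0.06 in deep shD3 #1 (adjusted p = 1.01e-05). The genes nearest to *THUMPD1* were *YME1L1*, a protease of the mitochondrial inner membrane (0.04), and *FXR1*, an RNA-binding protein (0.04).

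*THUMPD2* (ENSG00000138050, chr2:39736060-39779267), the U6 snRNA methyltransferase, which like THUMPD3 joins a THUMP domain to a methyltransferase domain, had no direction shared by the comparisons. It held 16.2, 16.3 and 16.5 cpm in sh1Control and 17.4, 14.3 and 12.5 cpm in shD3 #1 (-0.12, -0.34 to 0.10, adjusted p = 0.356). It held 15.2, 17.4 and 16.8 cpm in sh4Control and 15.5, 13.6 and 12.4 cpm in shD3 #4, and fell there by 0.23 (SE 0.09, adjusted p = 0.0491) with overlapping groups. In siControl it held 15.4 and 20.3 cpm and in siD3 #3 14.1, 12.9 and 15.8 cpm (-0.31, -0.68 to 0.05, adjusted p = 0.164). In the deep set it went the other way. It held 13.8, 12.3 and 12.4 cpm in deep sh1Control and 16.4, 15.6 and 13.5 cpm in deep shD3 #1, and rose by 0.24 (SE 0.08, adjusted p = 0.0231), again with overlapping groups.

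Both calls of *THUMPD2* depended on single libraries. The one in shD3 #4 was not made by DESeq2 (adjusted p = 0.115), nor without sh4Control replicate 2 (0.183) or 3 (0.0758) or shD3 #4 replicate 2 (0.103) or 3 (0.233). The deep one was not made without deep sh1Control replicate 2 (0.078) or 3 (0.0754) or deep shD3 #1 replicate 1 (0.108) or 2 (0.0698). The average over the first knockdowns was -0.23 ± 0.07 (adjusted p = 0.0108) and was lost without siControl replicate 2 (0.0833). No pair of the first knockdowns differed in it past the threshold.

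With all libraries kept, the methyltransferases of the small ribosomal subunit RNA passed the test in different comparisons. No difference between them was tested. *BUD23* (ENSG00000071462, chr7:73683597-73698212), which makes methylguanosine on that RNA, held 68.6, 70.3 and 67.4 cpm in sh1Control and 82.6, 88.9 and 72.7 cpm in shD3 #1. In deep sh1Control it held 49.3, 50.1 and 52.0 cpm and in deep shD3 #1 56.1, 62.7 and 58.7 cpm. The groups of both pairs did not overlap, and *BUD23* rose by 0.27 ± 0.07 (adjusted p = 0.0053) and 0.23 ± 0.05 (adjusted p = 0.00171) on the log2 scale. It held 56.4, 65.4 and 60.3 cpm in sh4Control and 57.1, 69.8 and 65.5 cpm in shD3 #4 (0.09, -0.06 to 0.25, adjusted p = 0.349).

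In siD3 #3 the values of *BUD23* went the other way, with 57.0, 58.8 and 58.3 cpm below 72.3 and 65.3 cpm in siControl. The difference of -0.24 ± 0.09 missed the threshold (adjusted p = 0.0619) and passed it without siD3 #3 replicate 3 (-0.26, adjusted p = 0.0329). The changes differed between the knockdowns (adjusted p = 0.00729), with siD3 #3 minus shD3 #1 at -0.50 (-0.75 to -0.24, adjusted p = 0.00359) and siD3 #3 minus shD3 #4 at -0.33 (-0.59 to -0.07, adjusted p = 0.0587).

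*METTL5* (ENSG00000138382, chr2:169810081-169824931), which makes methyladenosine on the same RNA, held 21.0, 18.4 and 17.1 cpm in sh1Control and 19.99, 20.05 and 20.07 cpm in shD3 #1 (0.11, -0.08 to 0.29, adjusted p = 0.317). In sh4Control it held 21.4, 21.4 and 18.9 cpm and in shD3 #4 15.4, 18.2 and 17.1 cpm. In siControl it held 24.6 and 25.7 cpm and in siD3 #3 17.3, 19.9 and 16.3 cpm. The last 2 pairs did not overlap, and *METTL5* fell by 0.27 (SE 0.09, adjusted p = 0.0124) in shD3 #4 and by 0.49 (SE 0.12, adjusted p = 0.0166) in siD3 #3. In the deep set the interval was -0.29 to 0.09.

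The change of *METTL5* differed between the knockdowns (adjusted p = 0.00496). The change in shD3 #4 minus that in shD3 #1 was -0.38 (-0.66 to -0.09, adjusted p = 0.0319), and siD3 #3 minus shD3 #1 was -0.59 (-0.88 to -0.29, adjusted p = 0.00276). The shD3 #4 call was not made without sh4Control replicate 2 (0.0613) or shD3 #4 replicate 1 (0.0978). That of siD3 #3 was not made without siControl replicate 1 (0.0711) or 2 (0.0973) or siD3 #3 replicate 1 (0.0632), and averaged over the 3 first knockdowns *METTL5* fell by 0.23 (SE 0.06, adjusted p = 0.00185).

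*N6AMT1* (ENSG00000156239, chr21:28872191-28885371), the methyltransferase of the termination factor eRF1, was the least counted of the 9, with 45 to 161 counts per library in the first set. It held 6.2, 5.4 and 5.3 cpm in sh4Control and 7.6, 8.0 and 6.6 cpm in shD3 #4, without overlap, and rose there by 0.41 ± 0.12 (adjusted p = 0.0088). In a single fit of all 17 first libraries this value was 0.40 with an adjusted p of 0.0806. In sh1Control it held 6.1, 5.7 and 6.7 cpm and in shD3 #1 5.1, 6.7 and 4.4 cpm (-0.14, -0.47 to 0.18). The intervals were -0.64 to 0.44 in siD3 #3 and -0.13 to 0.26 in deep shD3 #1. Its substrate eRF1 is encoded by *ETF1*, which fell in all 4 comparisons, by 0.42 (SE 0.07, adjusted p = 0.000171), 0.33 (SE 0.07, adjusted p = 0.000275), 0.28 (SE 0.09, adjusted p = 0.0441) and 0.37 (SE 0.05, adjusted p = 6.61e-06) in shD3 #1, shD3 #4, siD3 #3 and deep shD3 #1, with no overlap between groups in any of them.

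How the mRNAs stood to each other was read per length, as cpm per kilobase of the union of a gene's exons, in the first libraries. *TRMT112* lay at 55.6 ± 5.08 in sh1Control, 67.7 ± 9.17 in sh4Control and 93.4 ± 1.28 in siControl. *BUD23* lay at 57.3 ± 1.22, 50.5 ± 3.77 and 57.3 ± 4.13. It was above *TRMT112* by less than the SD of *TRMT112* in sh1Control and below it in the other controls. *THUMPD1*, which has no methyltransferase domain, lay at 11.5 ± 0.19, 12.0 ± 0.27 and 12.0 ± 0.31. Of the methyltransferases, *THUMPD3* came next at 11.5 ± 0.31, 12.2 ± 0.78 and 13.2 ± 0.38. The other partners lay at 8.77 or lower in the controls, down to *N6AMT1* at 1.16 to 1.44. *BUD23* is annotated with 1 transcript and *TRMT11* and *METTL5* with 12 each, so the union length weighs on these levels to a different degree.

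Of the summed per-length level of the 7 methyltransferases, *THUMPD3* made up 13.3% ± 0.49 in sh1Control, 15.1% ± 1.11 in sh4Control and 14.4% ± 0.93 in siControl. In the knockdowns shD3 #1 had a share of 6.45% ± 0.76, shD3 #4 of 5.21% ± 0.49 and siD3 #3 of 3.35% ± 0.29. The share of *BUD23* went from 66.2% ± 0.89 to 74.7% ± 1.92, from 62.4% ± 1.96 to 73.3% ± 1.71 and from 62.7% ± 2.28 to 71.9% ± 0.56. Shares add up to the whole, so the share of one gene is bound to the loss of another, and no test was made. The ratio of *TRMT112* to this sum was 0.64 ± 0.07 in sh1Control and 0.80 ± 0.16 in shD3 #1, 0.84 ± 0.13 in sh4Control and 0.71 ± 0.06 in shD3 #4, and 1.02 ± 0.02 in siControl and 1.06 ± 0.06 in siD3 #3. In each of the 3 pairs the libraries of the knockdown and of the control overlapped in this ratio.

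**Figure D3:**
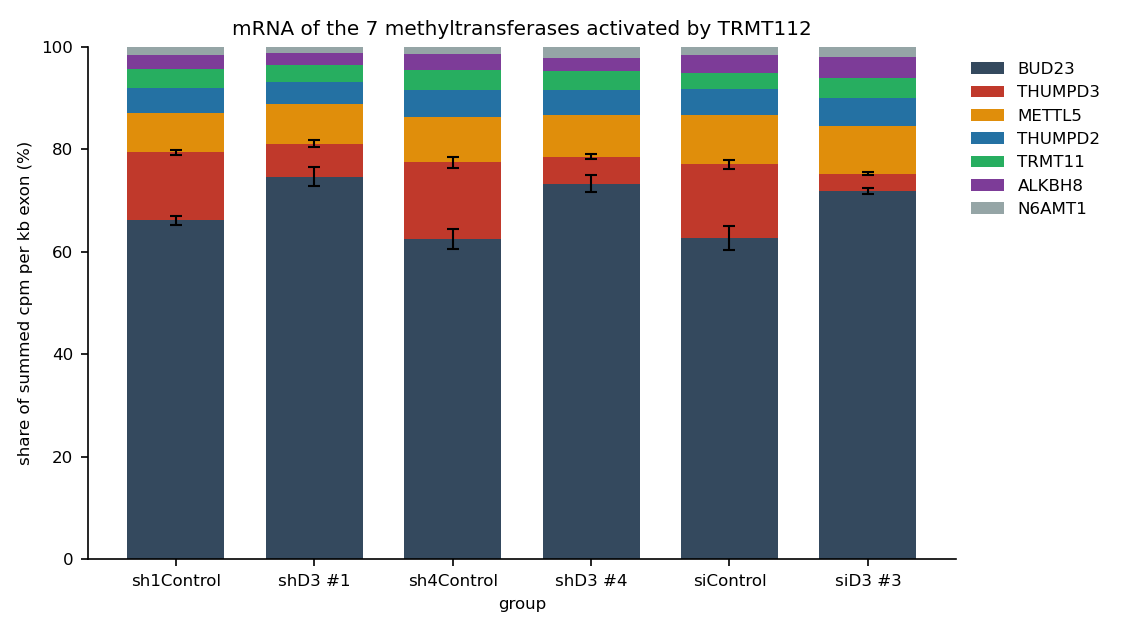
Share of each of the 7 methyltransferases that TRMT112 activates in their summed cpm per kilobase of exon (y axis, percent), as group means of the first libraries. Error bars are SDs between libraries and are drawn for the shares of *BUD23* and *THUMPD3* at the top of their segments. *THUMPD3* goes from 13.3% to 15.1% in the controls to 3.35% to 6.45% in the knockdowns, and *BUD23* holds most of the sum in every group.

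Several of these genes share their locus with another gene on the opposite strand. The deposited counts do not state whether the strand of the read was used, so reads over exons that overlap cannot be assigned to one of the 2 genes with certainty. *THUMPD3-AS1*, a long noncoding RNA, runs antisense over the whole of *THUMPD3* and shares 730 exon bases with it. It held 46.5, 47.1 and 44.6 cpm in sh1Control and 40.2, 39.8 and 41.8 cpm in shD3 #1. It held 42.9, 42.1 and 47.1 cpm in sh4Control and 48.6, 52.3 and 50.4 cpm in shD3 #4. The knockdowns lay below their controls in the first case and above them in the second.

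*THUMPD3-AS1* fell in shD3 #1 (-0.17 ± 0.07, adjusted p = 0.0404) and in deep shD3 #1 (-0.45 ± 0.10, adjusted p = 0.00101) and rose in shD3 #4 (0.21 ± 0.07, adjusted p = 0.0141), and the difference between the 3 first knockdowns passed the test (adjusted p = 0.0042). In siD3 #3 the change was 0.15 (-0.07 to 0.37, adjusted p = 0.258). *SRGAP3*, a GTPase-activating protein gene whose first exon overlaps the start of *THUMPD3* by 83 bases, rose in shD3 #4 (0.62 ± 0.13, adjusted p = 0.000319) and in siD3 #3 (1.01 ± 0.29, adjusted p = 0.0298) and had intervals of -0.55 to 0.04 and -0.25 to 0.14 in shD3 #1 and deep shD3 #1. It is a low gene, with 1.9 and 3.7 cpm in siControl and 5.3 to 6.7 cpm in siD3 #3.

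*PRDX5*, a peroxiredoxin gene that starts 561 bases from *TRMT112* in the other direction, did not follow it. It rose in shD3 #1 (0.83 ± 0.08, adjusted p = 1.79e-07), in shD3 #4 (0.22 ± 0.08, adjusted p = 0.0388) and in deep shD3 #1 (0.18 ± 0.07, adjusted p = 0.042), the last 2 being comparisons in which *TRMT112* fell and in which the *PRDX5* groups overlapped. In siD3 #3 its change was 0.24 (0.01 to 0.47, adjusted p = 0.101), and without siD3 #3 replicate 3 it was 0.29 (adjusted p = 0.0185). *ESRRA*, a nuclear receptor gene whose end overlaps that of *TRMT112* by 284 exon bases, fell in shD3 #1 (-0.76 ± 0.07, adjusted p = 1.56e-07) and in deep shD3 #1 (-0.59 ± 0.06, adjusted p = 3.59e-07). For shD3 #4 its interval was -0.05 to 0.23, and for siD3 #3 it was -0.40 to 0.25. In the first shD3 #1 libraries, *TRMT112* and *PRDX5* thus rose while *ESRRA* fell.

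*DNAJC30*, a chaperone gene that starts 143 bases from *BUD23* in the other direction, passed the test in none of the 4 comparisons (adjusted p = 0.79, 0.458, 0.231 and 0.704 by edgeR). *STX1A*, a syntaxin gene 993 bases beyond the end of *BUD23*, rose in shD3 #1 (0.58 ± 0.07, adjusted p = 3.74e-06) and in deep shD3 #1 (0.63 ± 0.05, adjusted p = 1.42e-07), the comparisons in which *BUD23* rose. *SSB*, which encodes the La protein that binds newly made U6 snRNA, overlaps *METTL5* by 572 exon bases and fell in all 4 comparisons, by 0.50, 0.24, 0.33 and 0.39 on the log2 scale (adjusted p = 7.25e-06, 0.00453, 0.0353 and 7.28e-06). *ACSM3*, on the opposite strand of *THUMPD1* with no shared exon bases, had log2 fold changes of -0.43, 0.44, -0.09 and -0.55. Annotated pseudogenes of *THUMPD3*, *THUMPD1*, *TRMT112* and *METTL5* held at most 4 counts in any first library.

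**Figure D4:**
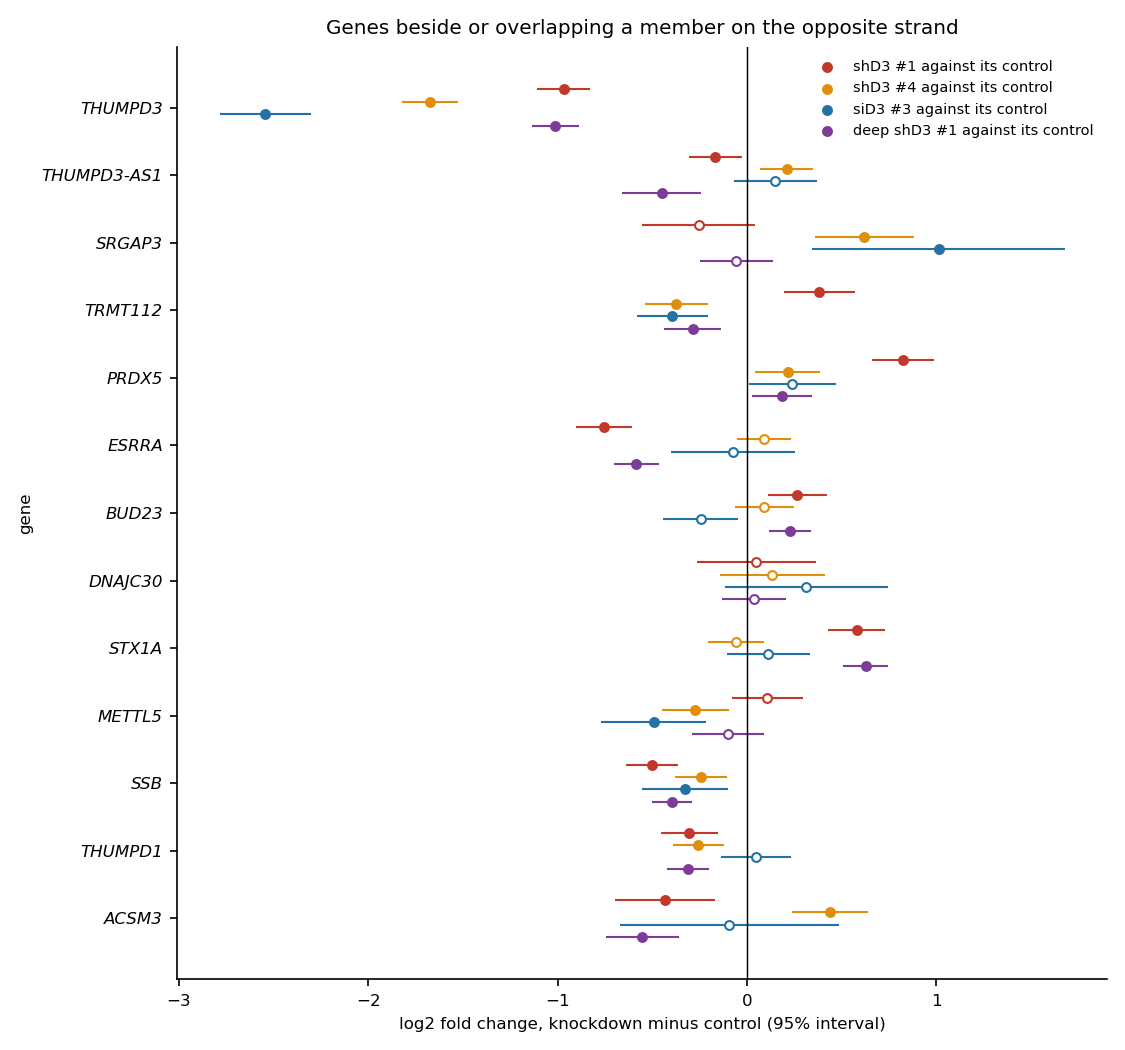
Log2 fold change, knockdown minus its own control (x axis), with its 95% interval, of 5 of the 9 genes and their neighbours. Each of the 5 is followed by the tested genes that overlap it or lie within 1000 bases on the opposite strand. Overlapping genes with too few counts to be tested are not drawn. Filled points passed an adjusted p of 0.05. *THUMPD3-AS1*, *SRGAP3*, *PRDX5*, *ESRRA* and *ACSM3* lie across 0 from the gene beside them, with both points filled, in at least 1 comparison. *SSB* lies below 0 in all 4 comparisons.

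The wider pathways were read from lists of named genes, as counts of the members that passed the test in each direction, beside the share of all genes that did. For higher and lower genes that share was 28.6% and 27.8% in shD3 #1, 20% and 20.8% in shD3 #4, 16.6% and 16.4% in siD3 #3, and 31.1% and 31.5% in deep shD3 #1. Without siD3 #3 replicate 3, 21.1% of all genes were higher and 21% lower in siD3 #3. The genes that fell there were then 10 of 14 for U6 snRNA, 12 of 23 for tRNA methylation, 6 of 13 for wobble uridine modification (of which 1 other gene then rose), 5 of 8 for ribosomal RNA methylation, 4 of 6 for termination and 5 of 14 for the S-adenosylmethionine cycle. The medians of all genes tested lay between -0.02 and 0.03 on the log2 scale.

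U6 snRNA methylation and assembly, the substrate pathway of THUMPD2, had the most members lower. Of its 14 genes, 8 fell and 2 rose in shD3 #1, 11 fell and 0 rose in shD3 #4, and 9 fell and 1 rose in siD3 #3. In deep shD3 #1, 10 of the 13 tested fell and 0 rose. The list medians were -0.34, -0.31, -0.47 and -0.39. *LSM3*, a subunit of the ring that binds the end of U6, fell in all 4 comparisons, by 0.31, 0.62, 0.92 and 0.58 (adjusted p = 0.0108, 2.5e-06, 0.00078 and 3.57e-06). *LSM2* of the same ring fell by 0.55 in shD3 #4 (SE 0.10, adjusted p = 0.000135) and by 1.03 in siD3 #3 (SE 0.13, adjusted p = 0.000994), was at -0.17 in shD3 #1 (adjusted p = 0.235), and had 0 counts in all deep libraries, where it was not tested. *METTL16*, which methylates adenosine in U6, rose in shD3 #1 (0.17 ± 0.07, adjusted p = 0.04) and fell in shD3 #4 (-0.35 ± 0.07, adjusted p = 0.000144). Its values in siD3 #3 and deep shD3 #1 were -0.09 and 0.02 (adjusted p = 0.566 and 0.709).

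Of 23 genes of cytosolic tRNA methylation, 8 rose and 6 fell in shD3 #1, 1 rose and 9 fell in shD3 #4, 0 rose and 8 fell in siD3 #3, and 4 rose and 9 fell in deep shD3 #1, with medians of -0.02, -0.15, -0.30 and -0.07. *WDR4*, the partner of METTL1 in making methylguanosine on tRNAs, fell in all 4 comparisons (-0.47, -0.29, -0.61 and -0.24). *LCMT2*, an enzyme of wybutosine synthesis, fell in shD3 #1 (-0.29), siD3 #3 (-0.66) and deep shD3 #1 (-0.35) and stood at 0.00 in shD3 #4. Of 13 genes of wobble uridine modification, on which ALKBH8 depends, 2 rose and 3 fell in shD3 #1, 0 rose and 2 fell in shD3 #4, and 0 rose and 6 fell in siD3 #3. In deep shD3 #1, 3 of 12 rose and 5 fell. The Elongator subunit *ELP6* fell in shD3 #1 (-0.41), siD3 #3 (-0.71) and deep shD3 #1 (-0.55) and was at 0.02 in shD3 #4 (adjusted p = 0.834). *ELP4* fell in shD3 #4 (-0.28) and siD3 #3 (-0.68), rose in deep shD3 #1 (0.33) and was at -0.05 in shD3 #1 (adjusted p = 0.688).

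Of 8 other genes of ribosomal RNA methylation, 3 rose and 1 fell in shD3 #1, 0 rose and 5 fell in shD3 #4, 0 rose and 4 fell in siD3 #3, and 1 rose and 3 fell in deep shD3 #1. The gene that fell throughout was *FBL*, fibrillarin, the ribose methyltransferase guided by small nucleolar RNAs, by 0.63, 0.76, 1.05 and 0.83 (adjusted p = 0.000197, 1.69e-08, 0.000598 and 3.68e-09). *DIMT1*, which dimethylates adenosines of the small subunit RNA, rose in shD3 #1 (0.20) and deep shD3 #1 (0.21) and fell in siD3 #3 (-0.83), and was at -0.15 in shD3 #4 (adjusted p = 0.0879).

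Of 6 genes of translation termination, 3 rose and 3 fell in shD3 #1 and in deep shD3 #1, 0 rose and 3 fell in shD3 #4, and 1 rose and 3 fell in siD3 #3. Besides *ETF1*, *PELO*, a ribosome rescue factor, rose in shD3 #1 (0.56), siD3 #3 (0.39) and deep shD3 #1 (0.57) and was at -0.01 in shD3 #4. Of 14 genes of the S-adenosylmethionine cycle, 2 rose and 5 fell in shD3 #1, 5 rose and 1 fell in shD3 #4, 1 rose and 5 fell in siD3 #3, and 3 rose and 5 fell in deep shD3 #1. *SHMT1*, a serine hydroxymethyltransferase, fell in shD3 #1 (-1.004), siD3 #3 (-1.59) and deep shD3 #1 (-0.66) and was at -0.02 in shD3 #4 (adjusted p = 0.831). *AHCYL2*, a relative of S-adenosylhomocysteine hydrolase, rose in all 4 comparisons, by 0.59, 0.52, 0.63 and 0.55.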

How the data were processed

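RNA of A549 cells was depleted of ribosomal RNA and sequenced from directional libraries. The authors trimmed reads with Trimmomatic 0.40, aligned them to GRCh38.p14 with STAR 2.7.10a and counted reads per gene. Both deposited tables hold these raw counts, unnormalised, and 0 columns were left unmapped. The first table lists versioned Ensembl identifiers, of which 61757 are in GENCODE 44, and the deep table lists symbols. The strand setting of the counting is not given in the sources used here.

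For each knockdown and its controls, counts were scaled by TMM, filtered by filterByExpr and tested by quasi-likelihood in edgeR 4.0.16 under R 4.3.3, Benjamini-Hochberg adjusted over all genes tested (threshold 0.05). The average effect of the 3 first knockdowns, and their differences, came from 1 fit of 17 libraries with knockdown type, condition and interaction. Control groups were compared with each other in an F test. Cpm were scaled once per table. Intervals are 95%. Alternatives were DESeq2 1.42.0, other size factors, filters, glmTreat, a replicate block, no mitochondrial genes and each library left out. Where that left 1 siControl library, it was taken to vary as the siD3 #3 libraries do. The fits were tested on simulated counts. The test between knockdowns recovered 70.5% of the changed genes and the other fits 91.5% to 100%. False calls were 2.09% to 7.41% of the calls, the most in the average effect.

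The 9 genes and the lists were chosen with earlier results of these data known. Other genes named were tested ones overlapping or within 1000 bases of a member, 3 known partners and the nearest genes by root-mean-square difference. From each list, the 2 with the largest mean change over the first knockdowns were named, among those passing in at least 2. Sequences came from RefSeq. P-values measure the spread between libraries, labelled biological replicates of 1 cell line. Figures were made with matplotlib 3.10.9.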

Additional observations from a re-analysis of the deposited data

Results flagged for a closer look

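The change with *THUMPD3* depletion differed between shD3 #1, shD3 #4 and siD3 #3 for 5 of the 9 genes, by the interaction test of 1 fit of the 17 first libraries in edgeR, where 52.4% of all genes tested differed. The adjusted p-values were 1.47e-09 for *THUMPD3*, 0.000104 for *TRMT112*, 0.00496 for *METTL5*, 0.00729 for *BUD23* and 0.0112 for *THUMPD1*. For *THUMPD3* the 3 changes differed in size and shared their direction. For *TRMT112* they differed in direction.

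*TRMT112* also lay above its controls in all 3 first shD3 #1 libraries and below them in all 3 deep shD3 #1 libraries (log2 fold change -0.29 in the deep set against 0.38 in the first). This difference between the sets was not tested, since the tables were normalised apart.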

How the results depend on the processing

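The number of the 9 genes past the threshold fell to 1, *THUMPD3*, in each of the 4 comparisons when glmTreat asked for a change of more than 1.5-fold, which 4.14% to 17.9% of all genes passed. In shD3 #4 it was 5 in the single fit of 17 libraries (29.2% of all genes). With a replicate block it was 6 in siD3 #3 (42.3%) and 1 between the control groups (23%). Since siControl has no replicate 3, the block gives siD3 #3 replicate 3 a term of its own. That library then does not inform the tested difference itself. Replicate numbers did not pair the samples: the correlations of same-numbered deviations were -0.11 to 0.14, and in no comparison did every sample correlate best with its own number, so the block shares only a number. With 1 library left out, the counts were 4 to 5 in shD3 #1 (49% to 58.5% of all genes), 5 to 7 in shD3 #4 (33.2% to 41.8%), 1 to 5 in siD3 #3 (16.7% to 42.1%), 4 to 6 in deep shD3 #1 (56.2% to 58.8%), 4 to 7 for the average effect (46.4% to 54.3%), 4 to 6 between knockdowns (45.9% to 56.2%) and 2 to 5 between controls (23.7% to 33.9%). *THUMPD3* passed in every alternative, at -0.999 to -0.94 in shD3 #1, -1.73 to -1.65 in shD3 #4, -2.60 to -2.49 in siD3 #3 and -1.05 to -0.96 in deep shD3 #1 with 1 library left out. Signs that turned with 1 library left out were of changes that had not passed: *N6AMT1* in siD3 #3 (-0.35 to 0.21) and in the average (-0.035 to 0.15), and *TRMT11* in deep shD3 #1 (-0.062 to 0.041). Without siD3 #3 replicate 3, a setting added for other genes after the data were seen, *ACSM3* (0.057) and *ESRRA* (0.0012) turned likewise in siD3 #3. The cause of these shifts was not tested. The lowest counts were those of *N6AMT1* and *ALKBH8*.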
